A study of Homo sapiens with 6 samples.

Results

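The 31 genes described here make, sense, take up, move or export cholesterol. They were selected by gene symbol in the deposited expression table and joined by Ensembl identifier to the counts, which found all 31 among 58395 genes. They comprise 8 enzymes from acetyl-CoA to the isoprenoids, 11 enzymes from squalene to cholesterol, 5 regulators of the SREBP transcription factors, 4 genes of uptake, lysosomal exit and transport, 2 exporters, and LPIN1, a lipid enzyme whose gene is an SREBP target. The data came from 6 RNA-seq libraries, each from its own clonal line of HEK293, an established line of human embryonic kidney origin. GST lines 2, 8 and 9 overexpressed GST-3F, in which glutathione S-transferase serves as the control protein. NOCT lines 4, 11 and 12 overexpressed NOCT ∆(2-15)-3F, a nocturnin that lacks residues 2 to 15, where 3F is the tag as the labels write it. All 6 lines thus carried a tagged protein, and untransfected cells were not analysed here. Cells of every line grew for 3 days in DMEM with FBS, in 2 dishes of 10 cm, and ERCC spike-in RNAs went into the total RNA of every line. Each line is 1 clone, so p-values describe the spread between clones. The promoter of the constructs, and whether the dishes of a line were pooled, are not given in the sources used here.

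Cells build cholesterol from acetyl-CoA through mevalonate, isoprenoid diphosphates, squalene and lanosterol. When membrane sterol is low, SCAP escorts the SREBP proteins from the endoplasmic reticulum to the Golgi, where they are cleaved and released to switch on the genes of synthesis and uptake; INSIG proteins hold the complex back when sterol is high. Oxysterols activate the LXR receptors, which switch on exporters such as ABCA1 and ABCG1 and the ubiquitin ligase MYLIP, which removes lipoprotein receptors.

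The libraries held 19729745 to 24422406 gene counts, with NOCT line 4 the deepest. Construct reads were read first, against the labels: those of the GST construct numbered 88, 46 and 50 in GST lines 2, 8 and 9, and 1, 0 and 0 in NOCT lines 4, 11 and 12. Reads of the NOCT construct numbered 4, 7 and 3 in the GST lines and 74, 46 and 82 in the NOCT lines, in the same order. Of 7 HEK293 markers, the summed level was 856 to 1150 CPM (counts scaled to library size, with TMM factors) in GST lines and 980 to 1660 in NOCT lines. VIM alone had 678 to 1430 CPM, so the sum mostly reflects that gene. The marker PAX2 differed by group, with 108, 83 and 96 counts in GST lines 2, 8 and 9 and 19, 29 and 24 in NOCT lines 4, 11 and 12. LHX1 and KRT18 leaned the other way, with raw counts, not scaled for depth, that overlapped between the groups. LHX1 had 80, 271 and 209 counts in those GST lines and 552, 439 and 209 in those NOCT lines. KRT18 had 1272, 1522 and 1460 counts and 3452, 2532 and 1502 counts in the same order. For KRT18 only GST line 8 and NOCT line 12 overlapped, in libraries of 21420849 and 20124376 gene counts. Scaled to those totals, NOCT line 12 was the higher. The part of these markers in the results was not tested. NEFM had 4 to 9 counts in every line other than NOCT line 12, where it had 137. Of 7 markers of other cell types, the erythroid gene HBB was at 0 in every line and the 7 summed to at most 1.48 CPM. NOCT line 4 stood apart on the cholesterol genes, as set out further on, and results that rest on it are also given without it.

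Promoter sequence was available for 27 of the 31 genes from RefSeq (GRCh38.p14), and FDFT1, SQLE, ACAT2 and ABCG1 had no entry in the table used. Within 250 bases before the start, CCAAT or its complement ATTGG, the box bound by NF-Y, an SREBP partner, occurred in 19 of the 27 (70.4%). It occurred in 14 of 16 enzyme promoters, against 37.0% of 27305 gene symbols with a promoter and 41.6% of the 11088 such symbols that were tested for expression. CACNCCAC or its complement GTGGNGTG, a form of the sterol regulatory element, occurred in 5 of the 27 (18.5%): ABCA1, IDI1, INSIG1, SC5D and SREBF2. Its share was 5.89% of all symbols and 6.54% of tested ones. GGGCGG or CCGCCC, the Sp1 box, occurred in 26 of the 27 (96.3%), against 46.2% of all symbols and 74.7% of tested ones. Presence was scored, on either strand, so overlapping matches did not add to a count, and a match describes the letters and not a bound site.

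Stretches from 4 promoters are shown. HMGCS1, INSIG1 and STARD4 were picked from the members lowest in NOCT line 4, and SREBF2 encodes the SREBP that drives sterol synthesis. INSIG2, LPIN1 and NPC1 were also lowest in that line and had no CCAAT match on either strand. A link between these matches and the levels in that line was not tested. Capitals mark CCAAT and CACNCCAC matches on either strand, and each is written 5′ to 3′ on the gene's own strand. The stretches lie 163 to 88 (HMGCS1), 216 to 158 (INSIG1), 169 to 118 (STARD4) and 140 to 94 (SREBF2) bases before the RefSeq start.
HMGCS1, chr5:43313500-43313575, minus strand: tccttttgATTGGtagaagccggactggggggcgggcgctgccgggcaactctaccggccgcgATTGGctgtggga
INSIG1, chr7:155297662-155297720, plus strand: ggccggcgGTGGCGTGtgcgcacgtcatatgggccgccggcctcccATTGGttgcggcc
STARD4, chr5:111512653-111512704, minus strand: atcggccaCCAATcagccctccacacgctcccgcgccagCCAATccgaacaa
SREBF2, chr22:41832965-41833011, plus strand: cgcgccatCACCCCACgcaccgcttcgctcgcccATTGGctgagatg

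Levels between genes were compared on the deposited TPM scale, which divides by gene length. In the GST lines the most abundant members were HMGCS1, which makes HMG-CoA, at 147 ± 10.8 TPM and INSIG1 at 144 ± 7.41 TPM (SD, n = 3 for each). IDI1, ACAT2 and FDPS, which act before squalene, followed at 124 ± 13.4, 111 ± 10.6 and 97.5 ± 5.7 TPM (SD, n = 3). Early and late enzymes were mixed in the order: the kinases MVK and PMVK were at 8.15 ± 1.1 and 8.26 ± 1.29 TPM, and HSD17B7, a sterol ketoreductase, was at 4.73 ± 0.9 TPM (SD, n = 3). The lysosomal cholesterol proteins NPC1 and NPC2 had 24.3 ± 1.99 and 22.3 ± 4.05 TPM (SD, n = 3) and did not differ beyond that spread. SREBF2 exceeded SREBF1, at 37.5 ± 4.14 against 15.3 ± 0.678 TPM, and INSIG1 exceeded INSIG2, at 7.6 ± 1.54 TPM (SD, n = 3), in every line of both groups.

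The exporters were the least abundant members. ABCG1 had 0.615 ± 0.146 TPM and ABCA1 0.0404 ± 0.00672 TPM in GST lines (SD, n = 3). ABCA1 rested on 3, 3 and 4 counts in GST lines 2, 8 and 9 and 7, 12 and 2 in NOCT lines 4, 11 and 12, and it was the only member that did not pass the filter on low counts. The level of CYP51A1, lanosterol demethylase, was 1.51 ± 0.348 TPM (SD, n = 3), from 37 to 61 counts per line. In GENCODE release 29, 79.4% of its exonic bases are shared on the same strand with the gene models AC000120.2 and AC000120.3, and its row is therefore uncertain. GGPS1 shares 37.3% of its exonic bases with TBCE, and FDPS and HSD17B7 have 8 and 2 named pseudogenes, so their counts carry the same caution.

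**Figure D1:**
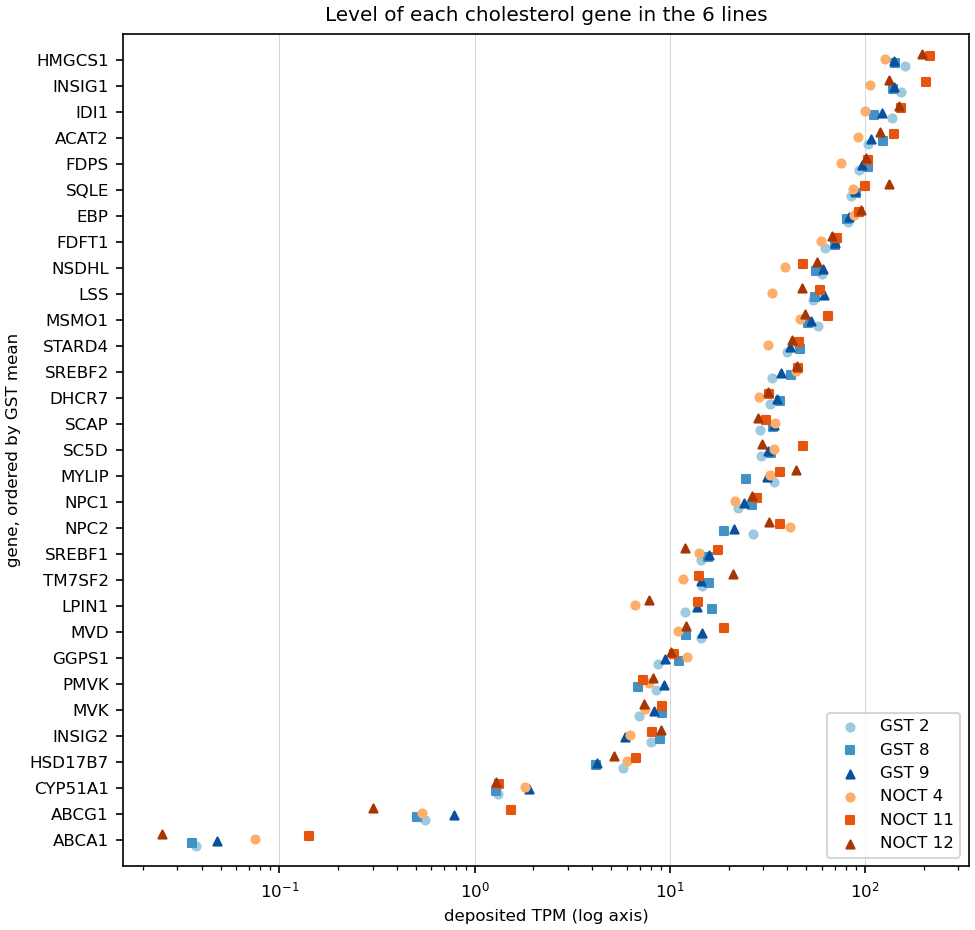
Deposited TPM of the 31 cholesterol genes in each of the 6 lines, on a log axis, with genes ordered by their mean in the GST lines (blue, GST; orange and brown, NOCT). HMGCS1 lies between 127 and 216 TPM at the top and ABCA1 between 0.025 and 0.141 TPM at the bottom, and the spread between lines is widest for the exporters.

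The comparison of the NOCT lines with the GST lines asks whether overexpressed NOCT ∆(2-15)-3F goes with altered RNA levels of these genes. No member passed the test: 0 of the 30 tested had an edgeR adjusted p under 0.05, where 10 of 17261 genes did (0.0579%). At an unadjusted edgeR p under 0.05 there were 3 of 30, namely NPC2 higher and LPIN1 and DHCR7 lower, against 13.9% of all genes tested. In 3 of 30 the groups did not overlap, namely NPC2 and SREBF2 higher and DHCR7 lower, against 20.0% of all genes. DESeq2 called 1 member, NPC2, against 3.41% of the genes to which it gave an adjusted p. The authors' deposited table called 1 member, also NPC2, against 2.87% of its gene rows with an adjusted p. edgeR without a filter on low counts called 2 of 31, NPC2 and LPIN1, against 2.57% of genes. None of the 19 synthesis enzymes, the 5 SREBP regulators and the 2 exporters was called by any of these. The exporter ABCA1 had an adjusted p only in edgeR without a filter, so the other settings could not call it.

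The members' fold changes were small and of both signs. Of the 30, 12 had a log2 fold change (NOCT over GST) above 0 and 18 below it, with a median of -0.05 beside 0.00 over all genes tested. The 19 synthesis enzymes had 8 above and 11 below, a median of -0.05 and a range of -0.39 to 0.24. With the spike-in totals as library sizes the median was 0.10 for the members and for the enzymes, and 0.15 for all genes, so the sign turned with the scaling while the members stayed below the median of all genes. Without NOCT line 4 the members' median was 0.11, and without NOCT line 11 it was -0.13. RNA from a whole culture was measured, so a change in all cells of a line and a change in some of them cannot be told apart.

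**Figure D2:**
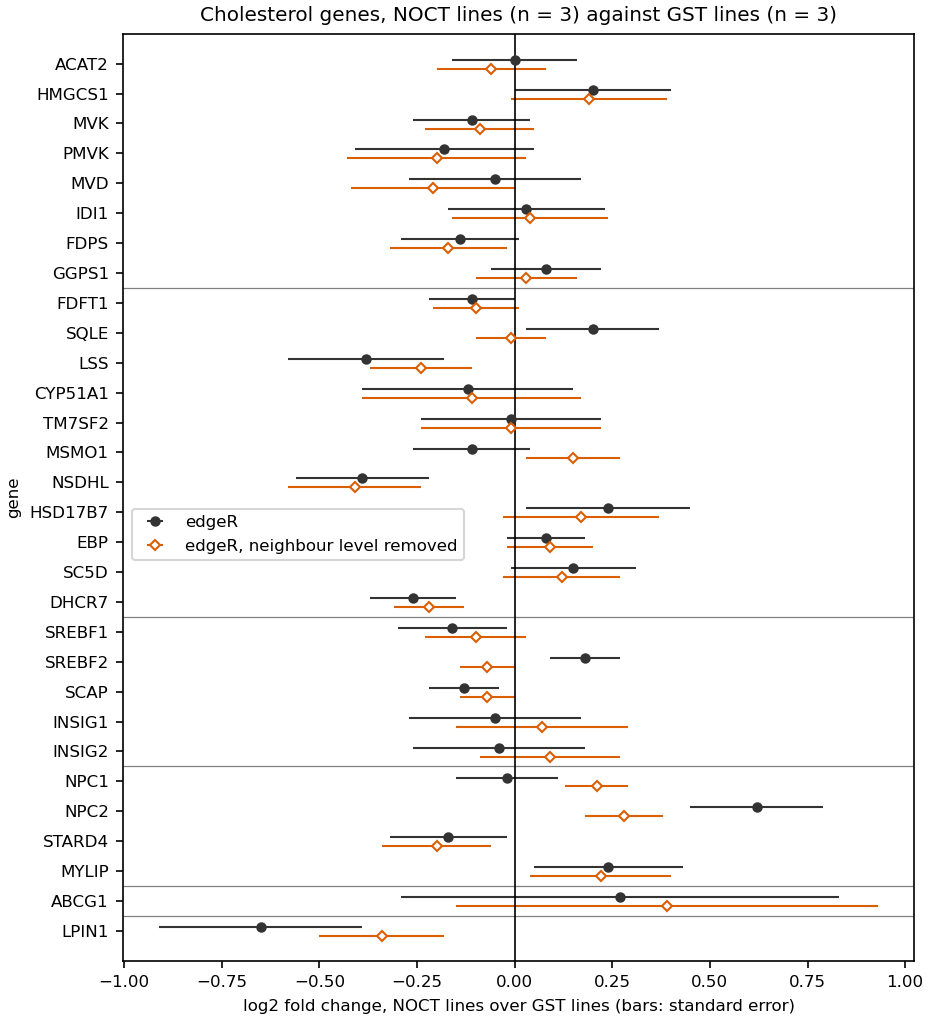
Log2 fold change of the 30 tested cholesterol genes, NOCT lines over GST lines, from edgeR (filled circles) and from edgeR after removal of the level of neighbouring genes (open diamonds), with standard errors as bars and genes in order of role. NPC2 at 0.62 and LPIN1 at -0.65 lie farthest from 0, and both move toward 0 when the neighbour level is removed.

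Among the enzymes of mevalonate and the isoprenoids, 4 of 8 had a fold change above 0 and 4 below it, and none passed the test. HMGCS1 (ENSG00000112972, chromosome 5, 43289395 to 43313512, minus strand, GRCh38) had the largest: 280, 229 and 237 CPM in GST lines 2, 8 and 9 and 193, 342 and 325 CPM in NOCT lines 4, 11 and 12. Its lowest line and its highest line were both NOCT lines. The log2 fold change was 0.20 (standard error 0.20; edgeR adjusted p 0.69), and it was 0.42 without NOCT line 4, 0.05 without line 11 and 0.10 without line 12. PMVK (ENSG00000163344, chromosome 1, 154924734 to 154936991, minus strand), which phosphorylates mevalonate phosphate, had the smallest. It had 4.06, 3.01 and 4.32 CPM in GST lines 2, 8 and 9 and 3.22, 3.14 and 3.71 CPM in NOCT lines 4, 11 and 12, and the NOCT values lay within the range of the GST lines. Its log2 fold change was -0.18 (standard error 0.23; edgeR adjusted p 0.762), and between -0.33 (without GST line 8) and -0.08 (without GST line 9) when 1 line was left out.

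The other members of that group had log2 fold changes from -0.14 (FDPS, which makes farnesyl diphosphate) to 0.08 (GGPS1, which makes geranylgeranyl diphosphate). MVK, MVD, the mevalonate diphosphate decarboxylase, and IDI1, the isomerase that follows it, were at -0.11, -0.05 and 0.03. ACAT2, the cytosolic thiolase at the head of the pathway, was at 0.00. Their groups overlapped in each case.

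From squalene to cholesterol, 4 of 11 enzymes had a fold change above 0 and 7 below it, and none passed the test. DHCR7 (ENSG00000172893, chromosome 11, 71428193 to 71452868, minus strand), the reductase of a last step to cholesterol, had 50.3, 52.1 and 53.2 CPM in GST lines 2, 8 and 9 and 38.3, 45.1 and 46.9 CPM in NOCT lines 4, 11 and 12. All 3 NOCT lines lay below all 3 GST lines. Their means were 51.9 ± 1.48 and 43.4 ± 4.52 CPM (SD, n = 3 each), and an exact permutation test (two-sided) gave p = 0.1, which is as small as 3 lines against 3 allow. In the fit, DHCR7 had a log2 fold change of -0.26 (standard error 0.11; edgeR p 0.042, adjusted 0.337). It was -0.18 without NOCT line 4 (edgeR p 0.117) and -0.17 by limma on log2(TPM + 1) (limma p 0.144). Without NOCT line 12 it was -0.32 (edgeR p 0.0225, adjusted 0.145). With the level of neighbouring genes removed it was -0.22 (edgeR p 0.0375, adjusted 0.31).

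NSDHL (ENSG00000147383, chromosome X, 152830967 to 152869729, plus strand), a dehydrogenase in the removal of sterol methyl groups, had the lowest fold change of the enzymes. It had 44.8, 38.5 and 43.8 CPM in GST lines 2, 8 and 9 and 25.0, 32.3 and 40.0 CPM in NOCT lines 4, 11 and 12. NOCT line 12 lay inside the GST range, so the groups overlapped. NSDHL had a log2 fold change of -0.39 (standard error 0.17; edgeR adjusted p 0.365), and -0.24 without NOCT line 4. With the level of neighbouring genes removed it was -0.41 (edgeR adjusted p 0.325). HSD17B7 (ENSG00000132196, chromosome 1, 162790702 to 162812817, plus strand), the ketoreductase of the same reaction series, had the highest. It had 8.86, 5.94 and 6.28 CPM in GST lines 2, 8 and 9 and 8.09, 9.32 and 7.52 CPM in NOCT lines 4, 11 and 12. GST line 2 lay among the NOCT lines, and the log2 fold change was 0.24 (standard error 0.21; edgeR adjusted p 0.639). It was 0.44 without GST line 2 and 0.13 without GST line 8.

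LSS (ENSG00000160285, chromosome 21, 46188141 to 46228824, minus strand), lanosterol synthase, had nearly the same fold change as NSDHL and was picked out after its values were seen. It had 146, 137 and 161 CPM in GST lines 2, 8 and 9 and 77.6, 143 and 122 CPM in NOCT lines 4, 11 and 12, so the lowest value was in line 4 and line 11 lay inside the GST range. LSS had a log2 fold change of -0.38 (standard error 0.20; edgeR adjusted p 0.444), -0.17 without line 4 and -0.58 without line 11. SQLE, squalene epoxidase, was at 0.20, SC5D, a sterol desaturase, at 0.15, and EBP, a sterol isomerase, at 0.08. The squalene synthase FDFT1, CYP51A1, the sterol reductase TM7SF2 and the methylsterol oxidase MSMO1 were at -0.11, -0.12, -0.01 and -0.11.

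Of the 5 SREBP regulators, 1 had a fold change above 0 and 4 below it, and none passed the test. SREBF2 (ENSG00000198911, chromosome 22, 41833079 to 41907308, plus strand) had 94.0, 108 and 101 CPM in GST lines 2, 8 and 9 and 109, 116 and 120 CPM in NOCT lines 4, 11 and 12. The NOCT lines were all higher, although line 4 was only just above GST line 8. Its log2 fold change was 0.18 (standard error 0.09; edgeR adjusted p 0.422; by exact two-sided permutation, p = 0.1, the smallest that can occur). With the level of neighbouring genes removed it was -0.07 (edgeR adjusted p 0.685), since the neighbours on chromosome 22 were 0.08 to 0.17 above their mean in NOCT lines and 0.07 to 0.22 below it in GST lines.

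SREBF1 (ENSG00000072310, chromosome 17, 17810399 to 17837002, minus strand), which encodes the SREBP best known for fatty acid synthesis, had the lowest fold change of the regulators. It had 43.4, 42.9 and 45.6 CPM in GST lines 2, 8 and 9 and 36.5, 47.7 and 34.1 CPM in NOCT lines 4, 11 and 12. NOCT line 11 was above every GST line and the other NOCT lines were below them. The log2 fold change was -0.16 (standard error 0.14; edgeR adjusted p 0.643), -0.32 without line 11 and -0.07 without line 12. SCAP was at -0.13, INSIG1 at -0.05 and INSIG2 at -0.04.

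In uptake, lysosomal exit and transport, 2 of 4 genes had a fold change above 0 and 2 below it. NPC2 (ENSG00000119655, chromosome 14, 74476192 to 74494177, minus strand), the soluble protein that hands lysosomal cholesterol to NPC1, had the highest log2 fold change of the 30 members tested. It had 27.4, 17.9 and 21.1 CPM in GST lines 2, 8 and 9 and 36.7, 33.8 and 31.3 CPM in NOCT lines 4, 11 and 12. All 3 NOCT lines were higher, with means of 22.1 ± 4.86 CPM in GST and 33.9 ± 2.71 CPM in NOCT lines (SD, n = 3 each; by exact two-sided permutation, p = 0.1, the smallest that can occur). Its log2 fold change was 0.62 (standard error 0.17), or 1.54-fold (edgeR p 0.00593, adjusted 0.196).

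The call for NPC2 changed with the tool. DESeq2 gave a log2 fold change of 0.61 (adjusted p 0.0358), edgeR without a filter 0.61 (adjusted p 0.0237), and the log2 fold change in the authors' deposited table was 0.53 (standard error 0.16; adjusted p 0.0362). The deposited table's name marks its fold changes as shrunken, so that 0.53 is not on the same footing as the 2 values of 0.61. The genes beside NPC2 on chromosome 14 followed a like pattern: their median deviation from the mean of the 6 lines was 0.05, -0.38 and -0.24 in GST lines 2, 8 and 9 and 0.20, 0.15 and 0.16 in NOCT lines 4, 11 and 12 (log2). With that level removed, the log2 fold change of NPC2 was 0.28 (standard error 0.10; edgeR adjusted p 0.259).

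NPC1, the membrane protein that receives this cholesterol, was at -0.02 with 84.2, 91.5 and 87.3 CPM in GST lines 2, 8 and 9 and 70.1, 95.6 and 94.3 CPM in NOCT lines 4, 11 and 12. Its neighbours on chromosome 18 were at -0.38 in line 4, where NPC1 itself was at -0.31. After their level was removed its log2 fold change was 0.21 (edgeR adjusted p 0.276), so its sign depended on that step. STARD4 (ENSG00000164211, chromosome 5, 111496033 to 111512590, minus strand), a carrier of sterol through the cytosol, had 84.1, 90.5 and 84.8 CPM in GST lines 2, 8 and 9 and 58.4, 88.3 and 84.4 CPM in NOCT lines 4, 11 and 12. Its log2 fold change of -0.17 (standard error 0.15; edgeR adjusted p 0.663) was -0.01 without line 4 and -0.28 without line 11. MYLIP was at 0.24 (edgeR adjusted p 0.604) with overlapping groups, and at 0.08 without GST line 8 and 0.08 without NOCT line 12.

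**Figure D3:**
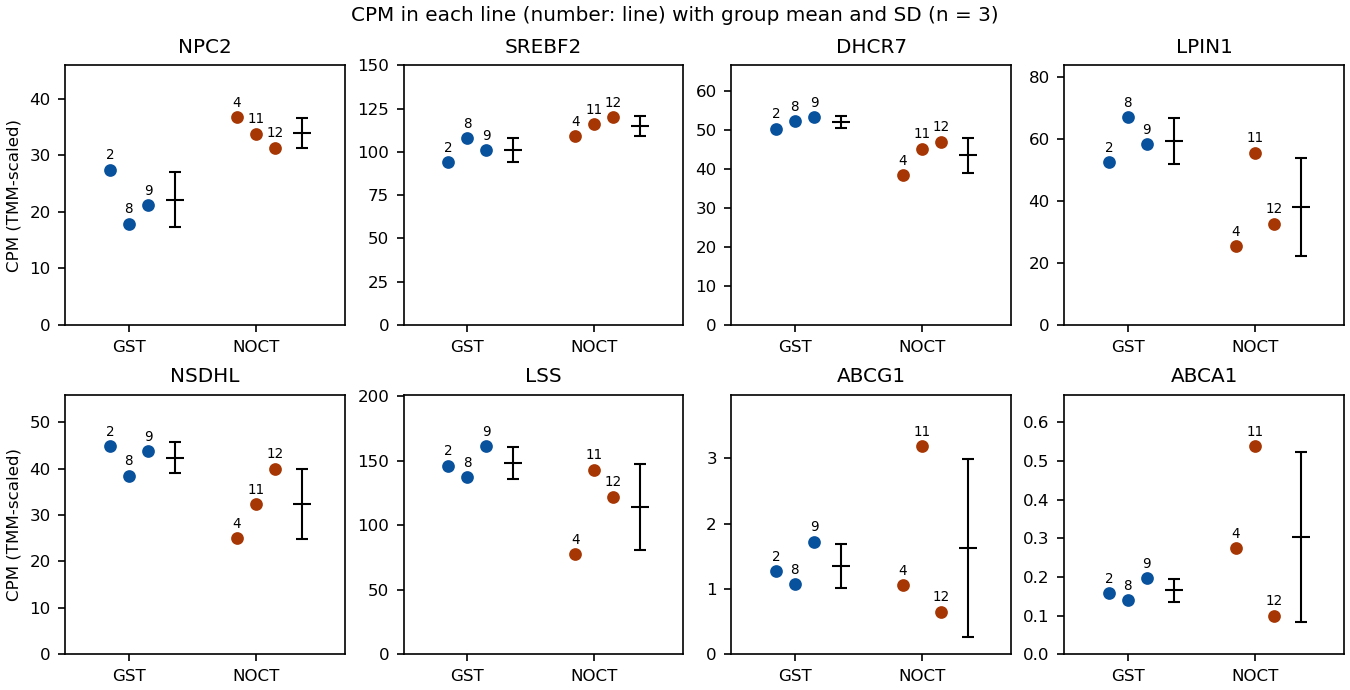
CPM of 8 cholesterol genes in each line (points, numbered by line) with the group mean and SD (n = 3) beside them, each panel on a linear axis from 0. The groups do not overlap for NPC2, SREBF2 and DHCR7, and in ABCG1 and ABCA1 the spread within the NOCT lines spans the GST lines.

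The exporters differed more within the NOCT lines than between the groups. ABCG1 (ENSG00000160179, chromosome 21, 42199689 to 42297244, plus strand) had 1.27, 1.07 and 1.72 CPM in GST lines 2, 8 and 9 and 1.06, 3.18 and 0.652 CPM in NOCT lines 4, 11 and 12. Line 11 was 4.88-fold above line 12, and the log2 fold change of 0.27 (standard error 0.56; edgeR adjusted p 0.857) was -0.65 without line 11. The biological coefficient of variation of ABCG1 was 46.3%, higher than in 96.9% of the genes tested. ABCA1 was likewise highest in line 11, at 0.538 CPM, and lowest in line 12, at 0.1 CPM, on 12 and 2 counts. SREBF1, which LXR receptors are also known to activate, had its highest and lowest values in the same lines. MYLIP, another LXR target, did not: it was highest in NOCT line 12, at 47.2 CPM, and lowest in GST line 8, at 25.6 CPM. Whether LXR receptors had a part in these values was not tested.

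LPIN1 (ENSG00000134324, chromosome 2, 11677595 to 11827409, plus strand) encodes lipin 1, a phosphatidate phosphatase that also acts in the nucleus. It had 52.5, 67.0 and 58.3 CPM in GST lines 2, 8 and 9 and 25.4, 55.6 and 32.6 CPM in NOCT lines 4, 11 and 12. Lines 4 and 12 were below every GST line and line 11 was not. The log2 fold change was -0.65 (standard error 0.26; edgeR p 0.0385, adjusted 0.328; exact two-sided permutation p = 0.2). It was -0.43 without line 4 and -1.04 without line 11. Its neighbours on chromosome 2 were at -0.35 in line 4 and -0.31 in line 12, and with their level removed the log2 fold change was -0.34 (edgeR adjusted p 0.386). edgeR without a filter on low counts gave an adjusted p of 0.0199, and that in the authors' deposited table was 0.153.

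The spread between single lines held the clearest shared pattern, which was noticed in these data and is given as a description. NOCT line 4 was the lowest of the 6 lines for 13 of the 19 synthesis enzymes (68.4%), while it was the lowest for 21.1% of all genes tested. It was the lowest for 18 of the 30 members (60.0%), including INSIG1, STARD4, NPC1, INSIG2 and LPIN1. The 6 enzymes that were not lowest there were PMVK, GGPS1, CYP51A1, HSD17B7, EBP and SC5D. With spike-in totals or with the RLE scaling factors in place of TMM, the count stayed at 13 of 19.

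In log2 deviation from the mean of the 6 lines, the enzymes' median in line 4 was -0.30 beside 0.01 for all genes. It was -0.41 for the 8 enzymes of mevalonate and the isoprenoids and -0.27 for the 11 that follow. In the other lines the enzymes' median lay between -0.05 and 0.08. INSIG1, a strong SREBP target, had 208, 175 and 185 CPM in GST lines 2, 8 and 9 and 125, 252 and 170 CPM in NOCT lines 4, 11 and 12. IDI1 had 223, 166 and 190 CPM in those GST lines and 140, 222 and 231 CPM in those NOCT lines. Both were lowest in line 4, while their highest lines differed.

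NOCT line 11 was the line that was most often highest among the members. It was the highest for 10 of the 30 members (33.3%), against 14.0% of all genes tested. NOCT line 12 was the highest for 8 (26.7%), against 18.4% of all genes tested. NOCT line 11 and GST line 9 were each the lowest for 0 members, against 15.3% and 14.6% of all genes tested. For the 19 enzymes the median in line 11 was 0.08, beside 0.07 in GST line 2. The median deviation of all members in line 11 was 0.13, with 0.47 for INSIG1, 0.46 for SC5D, 0.43 for MVD and 0.38 for HMGCS1. For some members the group mean averaged NOCT lines that lay on both sides of the GST lines. HMGCS1, for 1, was at -0.44 in line 4 and at 0.38 and 0.31 in lines 11 and 12. Other members did not show this: DHCR7 was lower, and NPC2 higher, in every NOCT line than in any GST line. The biological coefficient of variation of the members had a median of 16.2%, near the 18.2% of all genes tested.

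**Figure D4:**
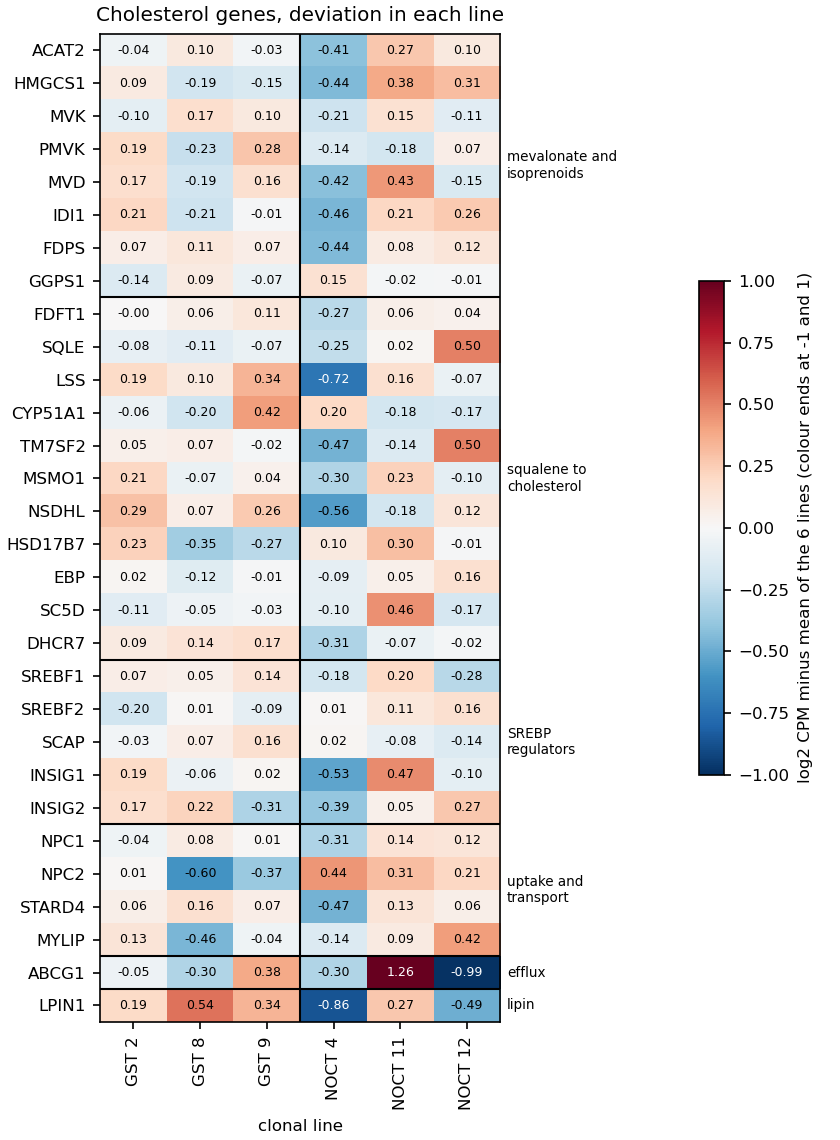
Log2 deviation of each tested cholesterol gene from its mean over the 6 lines, one column per line and one row per gene in order of role, with red above and blue below the mean. The column of NOCT line 4 is blue for most synthesis enzymes, with LSS at -0.72 and GGPS1 at 0.15, while the column of line 11 is mostly red.

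Clonal lines can differ in chromosome copy, so each member was set beside up to 100 tested genes that flank it. Chromosome copy itself was not measured, and its part was not tested. In line 4 some members were low while their neighbours were not, and others were low along with their neighbours. HMGCS1 was at -0.44 in line 4 with its neighbours at 0.03, and IDI1 was at -0.46 with neighbours at 0.06. FDPS was at -0.44 with neighbours at 0.08, and STARD4 was at -0.47 with neighbours at 0.01. NSDHL, TM7SF2 and INSIG1 were at -0.56, -0.47 and -0.53, with neighbours at 0.04, 0.07 and -0.06. By contrast INSIG2 on chromosome 2 was at -0.39 with neighbours at -0.36, and LSS on chromosome 21 was at -0.72 with neighbours at -0.34.

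After the neighbour level was subtracted, line 4 was the lowest for 14 of the 19 enzymes (73.7%), against 19.9% of all genes, and the enzymes' median there was -0.29. By group, the median in line 4 went from -0.41 to -0.43 for the 8 enzymes of mevalonate and the isoprenoids and from -0.27 to -0.19 for the 11 that follow. For all members it went from -0.30 to -0.20. Depth, the level of HEK293 markers such as VIM, which was highest in line 4 at 1430 CPM, and the level of the constructs also differ between the lines, and their part in the pattern was not tested. Elsewhere a gene and its neighbours deviated by like amounts: SQLE on chromosome 8 was 0.50 above its mean in line 12 with its neighbours at 0.49, and its log2 fold change went from 0.20 to -0.01. MSMO1 on chromosome 4 was at 0.21 in GST line 2 with neighbours at 0.35, and its log2 fold change went from -0.11 to 0.15.

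**Figure D5:**
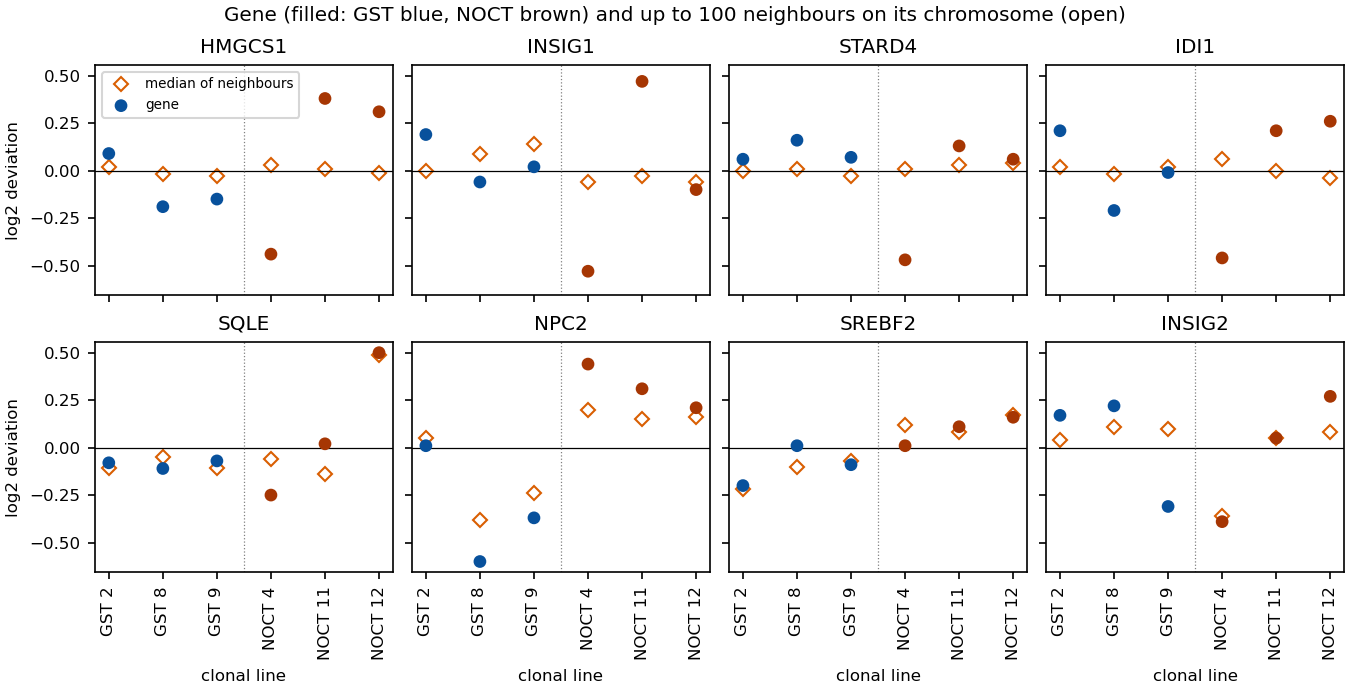
Log2 deviation from the mean of the 6 lines for 8 cholesterol genes (filled; blue, GST; brown, NOCT) and the median of up to 100 neighbours on the same chromosome (open diamonds), with one position per line. HMGCS1, INSIG1, STARD4 and IDI1 lie far below their neighbours in NOCT line 4, while SQLE in line 12 and INSIG2 in line 4 lie on them.

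Other genes of the pathway were read from 3 lists. Of 14 genes that use isoprenoids, 9 had a fold change above 0 and 5 below it with a median of 0.06, 0 passed the edgeR test, DESeq2 or the authors' deposited table, and 2 were lower at an unadjusted edgeR p under 0.05, a share near the 13.9% of all genes. The 2 were COQ2 and PDSS1, which make ubiquinone, with log2 fold changes of -0.45 (edgeR adjusted p 0.233) and -0.31 (edgeR adjusted p 0.28). COQ2 had 26.8, 21.7 and 23.4 CPM in GST lines 2, 8 and 9 and 19.3, 17.7 and 15.5 CPM in NOCT lines 4, 11 and 12, and its value with the neighbour level removed was -0.18. DHDDS, of dolichol synthesis, was at 0.22 (edgeR adjusted p 0.4). With the neighbour level removed, PDSS1 and DHDDS barely moved, at -0.30 and 0.21.

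Of 12 genes that process SREBP or degrade sterol-regulated proteins, 8 had a fold change above 0 and 4 below it with a median of 0.16, 0 passed the edgeR test, DESeq2 or the authors' deposited table, and 2 were higher at an unadjusted edgeR p under 0.05, again near the 13.9% of all genes. The 2 were UFD1, part of the complex that extracts proteins from the endoplasmic reticulum, at 0.37 (edgeR adjusted p 0.201) and MBTPS1, the protease that makes the first SREBP cleavage, at 0.26 (edgeR adjusted p 0.328). With the neighbour level removed they were at 0.10 and 0.06. RNF145, a sterol-responsive ubiquitin ligase, was at 0.44 (edgeR adjusted p 0.389) with NOCT line 12, at 45.0 CPM, below every GST line. Its value stayed at 0.44 with the neighbour level removed.

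Of 24 genes of sterol receptors, storage and transfer, 23 were tested (CH25H was not), with 11 above 0, 12 below it and a median of -0.01. None passed the edgeR test, while 1 was higher and 5 were lower at an unadjusted edgeR p under 0.05, where 13.9% of all genes were. DESeq2 called 3 of them, ABCA2, SCARB1 and CYP7B1, against 3.41% of all genes. The authors' deposited table and edgeR without a filter each called 2, ABCA2 and CYP7B1, against 2.87% and 2.57% of all genes. ABCA2, a transporter linked to lysosomal sterol, had 38.8, 31.7 and 37.6 CPM in GST lines 2, 8 and 9 and 22.0, 21.9 and 17.5 CPM in NOCT lines 4, 11 and 12. The groups were apart, with a log2 fold change of -0.81 and a standard error of 0.14 (edgeR adjusted p 0.0948), or -0.48 with the neighbour level removed. SCARB1, the receptor for high-density lipoprotein, was at -0.44 (edgeR adjusted p 0.185), and at -0.39 with the neighbour level removed. CYP7B1, an oxysterol hydroxylase, was at 1.37 (edgeR adjusted p 0.233), with 4.11, 1.07 and 1.87 CPM in GST lines 2, 8 and 9 and 6.48, 6.09 and 5.56 CPM in NOCT lines 4, 11 and 12. With the neighbour level removed CYP7B1 was at 1.34.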

How the data were processed

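The counts are whole reads per gene, and the TPM values are length- and depth-scaled, both as deposited by the authors, per the file headers. The authors' deposited comparison gives log2 fold changes, their standard errors (a score with no fixed range), p-values and adjusted p-values. The submitters' processing notes name FastQC 0.10.1, MultiQC 1.0, cutadapt 1.8.1, Trimmomatic 0.33, STAR 2.5.2b, HTSeq 0.6.1p1, DESeq2 1.16.1 and GRCh38; the annotation release is not given in the sources used here. Rows naming no gene were left out: reads without a feature were 26.5% to 30.6% of a file, ambiguous reads 2.02% to 2.41% and reads not aligned uniquely 13.3% to 14.6%. Gene totals of 19729745 to 24422406 counts set the counting precision, and p-values rest on 3 clones per group.

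The main test was edgeR 4.0.16 (R 4.3.3), quasi-likelihood, on the counts, with filterByExpr, TMM factors from genes alone and Benjamini-Hochberg adjustment over the 17261 genes tested, at a threshold of 0.05. Standard errors were derived from the F statistic. Single values were compared by exact permutation. Alternatives were DESeq2 1.42.0, RLE factors, spike-in totals as library sizes, no filter on low counts, limma 3.58.1 on log2(TPM + 1) and log2(TPM + 0.1), leaving out each line, and an offset for the median deviation of up to 50 neighbours on each side with at least 1 CPM. On simulated counts for 17261 genes, edgeR called 5 of 50 genes changed 1.5-fold, 31 of 50 changed 2-fold, 50 of 50 changed 4-fold and 50 of 50 changed 8-fold, with 4 false calls. The simulation gave every gene the common biological coefficient of variation of 19.7% and changed only genes above 5 CPM. It held no effects of single lines or chromosomes. Its rates therefore do not carry over to scarce or more variable members such as ABCG1, at 46.3%. GENCODE release 29 gave positions for 58275 of 58395 identifiers. The members and lists were chosen with earlier results of these data known. Genes given line by line were those with an unadjusted edgeR p under 0.05 and the highest and lowest fold change in each role group; in the other lists, the 3 smallest p-values. LSS, INSIG1, IDI1, NPC1, ABCA1 and the genes set beside their neighbours were added after their values were seen.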

Additional observations from a re-analysis of the deposited data

How the results depend on the processing

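No paired analysis was possible because the groups share no replicate numbers. The number of genes with an adjusted p under 0.05 was 10 as reported, 508 with DESeq2, 22 with spike-in totals as library sizes, 888 with no filter on low counts and 37 with the neighbour level removed. It ranged from 0 (without GST line 9) to 893 (without NOCT line 12) when 1 line was left out. The number of cholesterol genes called was 0 as reported, 1 with DESeq2 and 2 with no filter, and 0 without any 1 line; the cause was not tested. Their median log2 fold change ran from -0.13 to 0.11 over the lines left out. Of 390 recomputed fold changes of single members, 335 kept their sign and their side of the threshold, 3 passed it and 52 turned sign, in 17 members whose reported log2 fold changes were at most 0.27 in size. Spike-in totals turned MVK to 0.04, MVD to 0.10, FDPS to 0.01, FDFT1 to 0.04, CYP51A1 to 0.03, TM7SF2 to 0.13, MSMO1 to 0.04, SCAP to 0.02, INSIG1 to 0.10, INSIG2 to 0.10 and NPC1 to 0.13, on a scale where the median of all genes is at 0.15. Removing the neighbour level turned ACAT2 to -0.06, SQLE to -0.01, MSMO1 to 0.15, SREBF2 to -0.07, INSIG1 to 0.07, INSIG2 to 0.09 and NPC1 to 0.21. ACAT2 was at -0.01 with DESeq2 and with RLE factors, and at -0.00 with no filter. limma on log2(TPM + 1) and log2(TPM + 0.1) gave TM7SF2 at 0.02 and 0.02, INSIG2 at 0.03 and 0.04, and NPC1 at 0.05 and 0.06. Leaving out 1 line gave ranges that span 0 for ACAT2 (-0.15 to 0.17), MVD (-0.34 to 0.11), IDI1 (-0.09 to 0.22), FDPS (-0.24 to 0.01), SQLE (-0.03 to 0.36), CYP51A1 (-0.26 to 0.09), TM7SF2 (-0.33 to 0.18), MSMO1 (-0.27 to 0.00), SC5D (-0.08 to 0.27), INSIG1 (-0.36 to 0.15), INSIG2 (-0.20 to 0.11), NPC1 (-0.10 to 0.11) and ABCG1 (-0.65 to 0.64); the cause was not tested. ABCA1, at 2 to 12 counts per line, was below the filter on low counts.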
